A study of Mus musculus with 8 samples.

Results

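Fam107a is a single gene of the mouse liver transcriptome, chosen by its deposited FPKM and count values, which differed widely between mice given dexamethasone and mice given saline. It is 1 of the 22565 protein-coding genes in the deposited table, taken by its symbol (ENSMUSG00000021750). The mice were male C57BL/6J, 10 weeks old, and received dexamethasone at 1.0 mg/kg or saline as vehicle by daily intraperitoneal injection for 14 days. Dexamethasone is a man-made steroid agonist of the glucocorticoid receptor. Liver RNA was depleted of ribosomal RNA and sequenced from 4 dexamethasone and 4 vehicle libraries, named here dexamethasone 1 to 4 and vehicle 1 to 4. No label says whether each library came from its own mouse, so tests measure the spread between these libraries.

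Fam107a encodes a short protein, also called DRR1 or TU3A, that binds and bundles actin filaments and affects cell shape and motility. In the brain of mice its transcript is induced by stress and by glucocorticoids, and in several human tumour types the gene is lost or silent. The glucocorticoid receptor, once bound by its ligand, enters the nucleus and binds DNA at glucocorticoid response elements (GRE), which are inverted repeats of a short hexamer separated by 3 letters. FAM107B is the only close relative of the protein, and its gene, Fam107b, is described with the results.

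In the deposited table the Fam107a locus is on chromosome 14, 8296274 to 8319868, minus strand. GENCODE M21, an annotation of the GRCm38 mouse genome, gives the same start and an end at 8318023, with no other gene overlapping the locus. It lists 4 transcripts. Fam107a-202 starts upstream, at 8318023, and is 2093 bases long. Fam107a-201, Fam107a-203 and Fam107a-204 start at 8309779, 8309777 and 8309795 and are 3151, 3333 and 460 bases long. RefSeq (GRCm38.p6) gives promoters at an upstream start, 8317607, and at a downstream pair of starts, 8309779 and 8309777. Windows of 250 bases before to 50 bases after the upstream start and the first of the downstream pair are shown here, because the gene was all but silent with vehicle and its promoters are where letters for the receptor were searched. Each is written 5′ to 3′ on the minus strand, and capitals mark the GRE letters found.

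Upstream promoter, chr14:8317558-8317857: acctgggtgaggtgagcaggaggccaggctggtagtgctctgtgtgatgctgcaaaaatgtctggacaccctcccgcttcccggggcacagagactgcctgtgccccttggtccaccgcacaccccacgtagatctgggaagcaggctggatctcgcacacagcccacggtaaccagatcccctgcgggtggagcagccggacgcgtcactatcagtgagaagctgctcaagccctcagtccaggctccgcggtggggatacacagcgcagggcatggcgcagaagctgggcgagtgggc
Downstream promoter, chr14:8309730-8310029: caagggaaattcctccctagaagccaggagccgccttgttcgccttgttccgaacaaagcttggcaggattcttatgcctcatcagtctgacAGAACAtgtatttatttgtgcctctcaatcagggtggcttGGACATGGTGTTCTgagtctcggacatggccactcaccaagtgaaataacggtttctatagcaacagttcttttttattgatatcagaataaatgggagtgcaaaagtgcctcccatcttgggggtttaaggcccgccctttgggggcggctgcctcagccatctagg

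Motifs were chosen after these sequences had been read, and both strands were searched. The downstream window held 2 GRE hexamers (AGAACA or its reverse complement TGTTCT), the first of them beginning 158 bases before the start. It also held a GRE core, GNACANNNTGTNC, as GGACATGGTGTTC, beginning 118 bases before the start (chromosome 14, 8309885 to 8309897). The other hexamer, TGTTCT, beginning 110 bases before the start, overlaps the end of that core. The upstream window held neither the hexamer nor the core. Of 32817 RefSeq promoter windows of the same length, 18.97% held a hexamer, 2.54% held 2 or more, and 0.48% held the core. The full palindrome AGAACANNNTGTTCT was in 3 of the windows and in neither Fam107a window. A CArG box, the motif read by the serum response factor, was in neither Fam107a window and in 1.63% of all windows. These matches describe letters only, and the reads were not assigned to starts.

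Fam107a was close to absent from vehicle livers and clearly present in dexamethasone livers. Its level was 21.7, 17.5, 15.9 and 24.0 FPKM in dexamethasone 1 to 4, against 0, 0.161, 0.0543 and 0.164 FPKM in vehicle 1 to 4. FPKM, computed by the authors, divides the fragments of a gene by its transcript length and by the library's size. Every dexamethasone library stood far above every vehicle library. The means were 19.8 ± 3.74 FPKM with dexamethasone and 0.0948 ± 0.0812 FPKM with vehicle (SD, n = 4 each). The gene was chosen for this difference, so its values are given as a description, with no test.

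The columns that the table calls counts hold fragment counts divided by a factor for each library, and dividing by the value of 1 fragment gave whole numbers for Fam107a. As deposited they were 341, 267, 285 and 182 in dexamethasone 1 to 4, against 0, 2.89, 0.719 and 2.89 in vehicle 1 to 4. In fragments so inferred this was 357, 250, 258 and 132 with dexamethasone, against 0, 3, 1 and 3 with vehicle. The vehicle value therefore rests on 7 fragments in all, against 997 with dexamethasone. A count of 0 in vehicle 1 allows up to 3 fragments, or 1.44 CPM, where CPM is inferred fragments scaled to a library total of 1000000. The two-sided exact 95% interval for the same library reaches 1.78 CPM. Intervals and this limit cover counting error only.

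Taken over all inferred fragments, Fam107a was at 161, 122.5, 139 and 97.0 CPM in dexamethasone 1 to 4, against 0, 1.27, 0.298 and 1.37 CPM in vehicle 1 to 4. With the fragments of each group summed, the ratio of dexamethasone to vehicle was 190.3, with an exact 95% interval of 92.0 to 474.5 from counting alone. The width of that interval comes from the 7 vehicle fragments. It does not measure the spread between libraries, and it is no test, since the gene was chosen for this difference.

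The libraries differed in how much of their depth went to a single other gene, Lars2, whose product charges the leucine tRNA of mitochondria. Lars2 took 28.4% to 51.1% of inferred fragments with dexamethasone and 14.5% to 25.3% with vehicle. Libraries held 1361296 to 2219962 inferred fragments with dexamethasone and 2077509 to 3360088 with vehicle, and outside Lars2 665937 to 1581779 and 1636128 to 2571865. Counted outside Lars2, Fam107a was at 226, 171, 207 and 198 CPM in dexamethasone 1 to 4, against 0, 1.67, 0.389 and 1.83 CPM in vehicle 1 to 4. The spread within the dexamethasone group was then 11.3% of its mean, against 20.7% over all fragments and 18.9% in FPKM. The ratio of the summed groups became 223.8 (108.2 to 558.1, again from counting alone). The groups stood as far apart without Lars2 as with it.

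**Figure D1:**
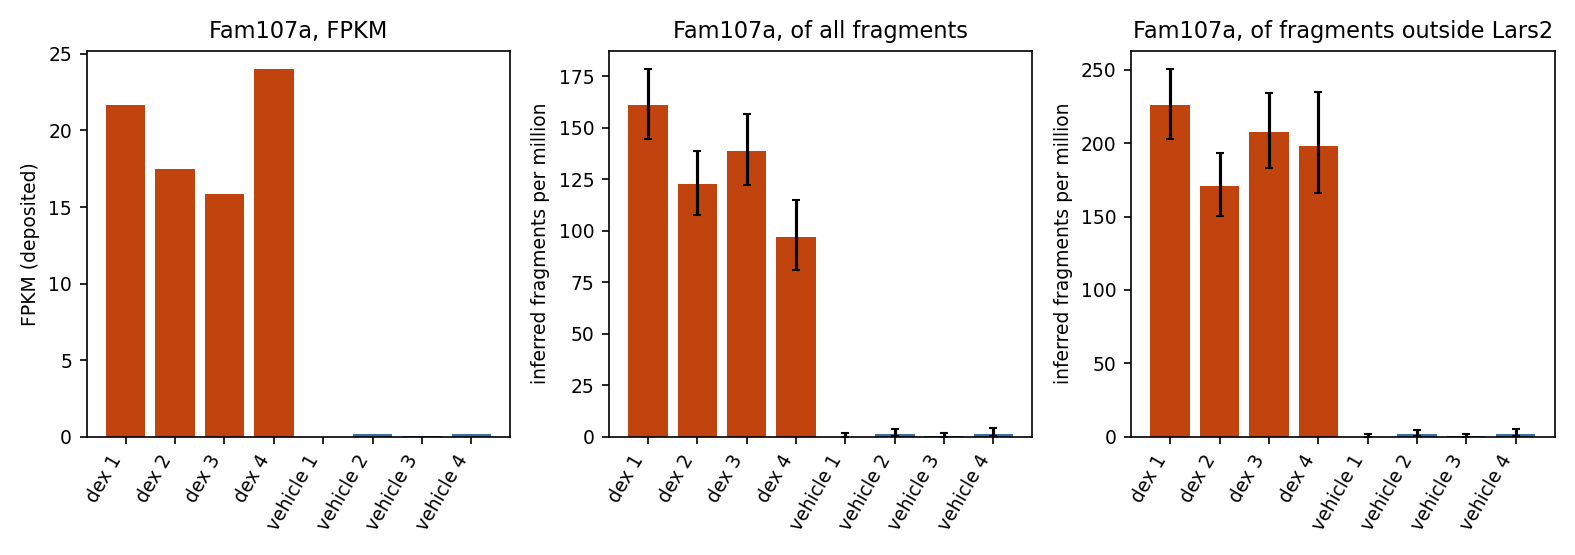
Fam107a in each library, as deposited FPKM (left), as inferred fragments scaled to CPM over all fragments (middle) and over fragments outside Lars2 (right). Error bars in the middle and right panels are exact 95% Poisson intervals for counting error. The 4 dexamethasone libraries reach 15.9 to 24.0 FPKM, and the vehicle libraries are at 0.164 FPKM or less.

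The order of the dexamethasone libraries depended on the unit. Dexamethasone 4 was highest by FPKM (24.0) and lowest by CPM over all fragments (97.0), and it is the library with the highest Lars2 share. Its deposited count per FPKM for Fam107a was 7.57, against 15.8, 15.3 and 18.0 in dexamethasone 1 to 3. Over well-covered genes the median of that ratio was 13.2 in dexamethasone 4 and 14.8 to 15.1 in the other dexamethasone libraries. Whether dexamethasone 4 holds more of a short Fam107a transcript was not tested. Comparisons among the dexamethasone libraries are therefore not drawn from FPKM.

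Per length, Fam107a went to a high level for a gene of this tissue. With dexamethasone its mean FPKM exceeded that of 93.5% of the 10221 genes tested, and its rank from the top of the whole table was 666. With vehicle its mean was above 0.1% of them, a share that the filter on tested genes makes low. Its rank with vehicle in the whole table of 22565 genes was 13136. In single libraries the share of genes below it was 91.3% to 95.9% with dexamethasone and 0.0% to 1.4% with vehicle. The 95.9% is that of dexamethasone 4, which had the lowest deposited count per FPKM for Fam107a in its group. A gene was tested where it reached 0.5 FPKM in at least 4 libraries, and Fam107a passed that filter through the dexamethasone libraries alone.

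Ranked by the difference of mean log2(FPKM + 1), dexamethasone minus vehicle, Fam107a was at rank 5 of the 10221 genes, with a difference of 4.23. Above it stood Cyp2b10, a drug-metabolizing cytochrome P450 (7.21), Lcn2, a siderophore-binding acute phase protein (5.58), and the metallothioneins Mt2 (5.43) and Mt1 (4.93). Directly below came Ppp1r3c, a subunit that targets a phosphatase to glycogen (4.05), Gadd45b, a stress-induced regulator of growth arrest (4.02), and Sult1e1, the oestrogen sulfotransferase (3.94). The added 1 holds down the difference of genes that start near 0. With 0.1 added in its place Fam107a was at rank 2 (6.76), and with the deposited counts in place of FPKM also at rank 2 (6.87), each time after Cyp2b10. On the plain difference of mean FPKM, with no log, it was at rank 58 (19.7 FPKM). Fam107a is among the 140 genes (1.37% of those tested) higher with dexamethasone in the fit over all genes, as its choice made certain.

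**Figure D2:**
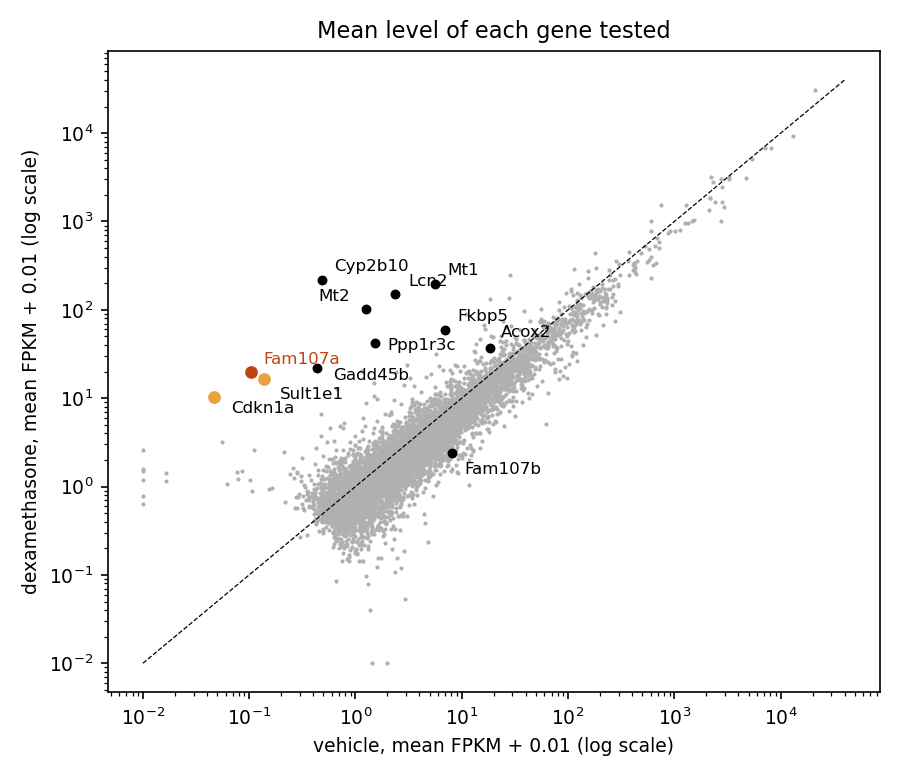
Mean FPKM of each of the 10221 genes tested with vehicle (x axis) and with dexamethasone (y axis), both on log scales after adding 0.01. The dashed line marks equal levels, and Fam107b lies below it. Fam107a (red) lies at the upper left. So do the other genes under 0.5 FPKM in all vehicle and at 5 FPKM or more in all dexamethasone libraries (orange).

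Few genes met the limits set here for this near-silent to expressed pattern, and no other limits were tried. All vehicle libraries were under 0.5 FPKM and all dexamethasone libraries at 5 FPKM or more for 3 of the tested genes (0.0294%), which were Fam107a, Sult1e1 and Cdkn1a, and 0 genes showed the opposite. Cdkn1a encodes p21, an inhibitor of the cell cycle. Sult1e1 had 427 inferred fragments with dexamethasone and 3 with vehicle, and Cdkn1a had 282 with dexamethasone and 2 with vehicle. Cyp2b10 and Gadd45b came close but exceeded 0.5 FPKM in some vehicle libraries. Cyp2b10 was at 170 to 250 FPKM with dexamethasone and 0.310 to 0.603 FPKM with vehicle (7569 and 20 inferred fragments). Gadd45b was at 17.1 to 26.5 FPKM with dexamethasone and 0.154 to 0.630 FPKM with vehicle (496 and 13 inferred fragments). Sult1e1 was at 23.3, 13.8, 17.8 and 11.8 FPKM in dexamethasone 1 to 4, against 0.371, 0, 0 and 0.135 FPKM in vehicle 1 to 4. By mean FPKM in dexamethasone livers Fam107a was the highest of these 3 genes, at 19.8 ± 3.74 FPKM. Sult1e1 was at 16.7 ± 5.06 FPKM and Cdkn1a at 10.4 ± 1.51 FPKM (SD, n = 4). The spread of Fam107a and Sult1e1 overlapped. Sult1e1 was above Fam107a in dexamethasone 1 and dexamethasone 3 and below it in dexamethasone 2 and dexamethasone 4, so no order is drawn between them.

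The genes whose log2(FPKM + 1) followed Fam107a most closely over the 8 libraries, by Pearson's r as a measure of likeness, were Lrrtm3 (0.999), Cyp2b10 (0.993), Rasl10b (0.992), Cdkn1a (0.992), Gadd45b (0.990), Uhrf1 (0.987), Rhbdd2 (0.986) and Sult1e1 (0.984). The libraries form 2 separate groups, so the measure mostly records that difference, and 36 genes were above 0.95. Lrrtm3, known as a synaptic adhesion protein, was far lower than Fam107a: 0.659, 0.606, 0.557 and 0.684 FPKM in dexamethasone 1 to 4, and listed at 0 in each vehicle library. Rasl10b, a small GTPase of the Ras family, was at 1.48 ± 0.334 FPKM with dexamethasone (SD, n = 4) and likewise listed at 0 with vehicle. Lrrtm3 rests on 4 to 11 inferred fragments in each dexamethasone library.

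The related gene Fam107b was lower, not higher, with dexamethasone in the deposited FPKM. Fam107b (ENSMUSG00000026655, chromosome 2, 3613758 to 3782142, plus strand) was at 2.23, 2.97, 2.17 and 2.07 FPKM in dexamethasone 1 to 4, against 5.41, 10.4, 12.4 and 3.98 FPKM in vehicle 1 to 4. The groups did not overlap in FPKM, which was the case for 16.2% of tested genes in this direction. The log2 difference was -1.32 ± 0.30 (SE; limma with Benjamini-Hochberg adjustment, adjusted p = 0.016), and after median-ratio scaling, which brings the median gene of every library level, it was -0.99 (adjusted p = 0.048). Tests were two-sided, across all 10221 genes.

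The lower Fam107b level depended on the unit. Its inferred fragments numbered 36, 34, 33 and 18 in dexamethasone 1 to 4, against 55, 70, 56 and 56 in vehicle 1 to 4. Outside Lars2 these were 22.8, 23.3, 26.5 and 27.0 CPM with dexamethasone, against 30.9, 38.9, 21.8 and 34.2 CPM with vehicle, so that the groups overlapped. With the deposited counts in place of FPKM the limma call was lost (-0.72, adjusted p = 0.089), and with those counts after median-ratio scaling the difference was -0.26 (adjusted p = 0.55). Without vehicle 2 or vehicle 3 the adjusted p was 0.062 or 0.051. Vehicle 3, the highest by FPKM, had a deposited count per FPKM of 3.26, against 6.48 to 13.5 in the other vehicle libraries and 11.97 to 16.8 in the dexamethasone libraries.

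The genes around Fam107a on chromosome 14 were examined within 500 kb on either side. Of 10 other entries described here, 8 were tested, 1 was higher and 0 were lower, against 1.37% higher and 7.85% lower of all genes tested. The gene that rose was Acox2, the nearest on the side of lower coordinates at 36.9 kb (ENSMUSG00000021751, 8225511 to 8259353, minus strand). Acox2 is a peroxisomal oxidase of branched-chain fatty acids and bile acid intermediates. It was at 50.8, 35.1, 28.3 and 34.9 FPKM in dexamethasone 1 to 4, against 17.5, 22.9, 16.2 and 17.1 FPKM in vehicle 1 to 4, and the groups did not overlap, as for 2.18% of tested genes in this direction. The log2 difference was 0.96 ± 0.22 (SE; limma adjusted p = 0.017, and 0.0022 after median-ratio scaling). Without vehicle 3 the adjusted p was 0.060.

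The nearest gene on the other side, Oit1 at 29.1 kb, was listed at 0 in all 8 libraries. Further away 4930452B06Rik was below the filter. Abhd6, a monoacylglycerol lipase gene, had a log2 difference of -0.77 (limma adjusted p = 0.060). Its groups did not overlap, as for 16.2% of tested genes in this direction. It was called lower with the deposited counts (-0.94, adjusted p = 0.025), where 1473 of all genes tested were lower. After median-ratio scaling it did not pass, in FPKM (-0.39, adjusted p = 0.38) or in counts (-0.47, adjusted p = 0.21). The count of 0 lower neighbours thus depends on the unit and the scaling. Dnase1l3, Pdhb, Pxk, Kctd6 and the 2 entries for Rpp14 had differences of -0.59 to 0.06 and did not pass. Acox2 was thus the only one of these tested neighbours that rose, by less than Fam107a.

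**Figure D3:**
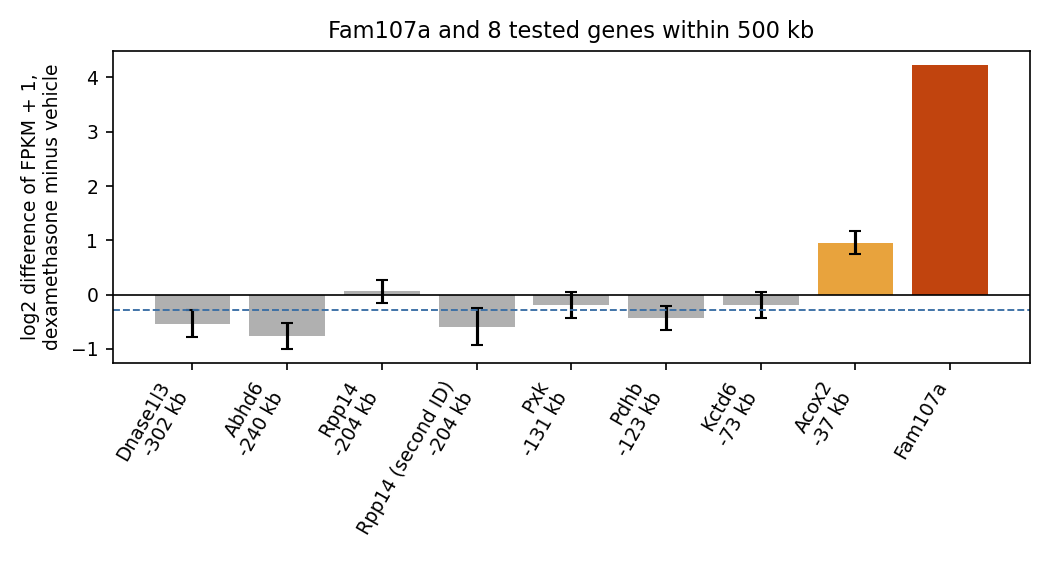
Log2 difference (FPKM + 1, dexamethasone minus vehicle) of Fam107a and 8 tested genes within 500 kb, in order along the chromosome with the distance to the Fam107a locus. Error bars are SE (none for Fam107a), the dashed line is the median of all genes tested (-0.28), and orange marks Acox2, the neighbour past the threshold (0.96).

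Fam107a acts on actin, so lists of actin cytoskeleton genes are described beside it, with no set test. Fam107a was chosen for its large change, so no list could be expected to match it. The counts in these lists are to be read against the shares over all genes tested. Over all genes tested 802 (7.85%) were lower and 140 (1.37%) higher in the deposited FPKM, with a median log2 difference of -0.28. After median-ratio scaling the median was -0.0038, with 337 higher (3.3%) and 310 lower (3.03%). Shifts of about -0.28 are therefore shared by the median gene.

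Of the actin isoform genes, Actb, the main actin of non-muscle cells, was at 80.7 ± 9.96 FPKM with dexamethasone and 78.2 ± 10.0 FPKM with vehicle (SD, n = 4 each), and its difference did not pass (0.05 ± 0.19 SE, limma adjusted p = 0.90, 0.10 after scaling). Actg1 was listed at 0 in vehicle 1 and vehicle 2 and rested on at most 12 inferred fragments in any library. Actg1 is used by nearly every cell, so these values may be failed estimates and no change is read from them. The other 4 isoform genes were below the filter.

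Among actin bundling and crosslinking genes, the group nearest in function to Fam107a, 2 of 26 tested members rose and 3 fell, with a median log2 difference of -0.21 (0.04 after scaling). Baiap2, which encodes a membrane-bending adaptor that binds actin, was at 14.7, 13.3, 16.4 and 21.7 FPKM in dexamethasone 1 to 4, against 6.17, 10.6, 7.90 and 6.76 FPKM in vehicle 1 to 4. Its groups did not overlap (0.99 ± 0.23 SE, limma adjusted p = 0.018, 0.0089 after scaling, 0.061 without vehicle 1). Actn4, an actinin gene named after its value was seen, also rose (0.87, limma adjusted p = 0.046). That call was lost with the deposited counts (adjusted p = 0.18) and without any of 7 single libraries. After median-ratio scaling Actn4 passed in FPKM and in deposited counts (limma adjusted p = 0.0071 and 1.3e-04). Lima1, which encodes a protein that crosslinks and stabilizes filaments, fell to 2.34 ± 1.09 FPKM with dexamethasone, against 6.25 ± 0.644 FPKM with vehicle (SD, n = 4 each; -1.16 ± 0.24 SE, limma adjusted p = 0.011, 0.021 after scaling). Lcp1, a bundler of leukocytes, and Fermt2, an integrin activator, fell in the deposited values (adjusted p = 0.027 and 0.031). Fermt2 is counted here because the list as drawn up holds it, although it is not named as a bundler or crosslinker. After scaling of FPKM Lcp1 and Fermt2 were at -0.64 and -0.55 and missed the threshold (0.095 and 0.15). With the deposited counts after median-ratio scaling both passed (-0.84 and -0.71, limma adjusted p = 0.0056 and 0.012). Both calls in the deposited FPKM were lost without some single libraries (limma adjusted p up to 0.09 for Lcp1 and 0.1 for Fermt2).

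Of 44 tested genes of actin assembly and turnover, 0 rose and 2 fell, with a median of -0.34 (-0.04 after scaling, where 0 rose and 0 fell). These were the formin gene Daam1 (limma adjusted p = 0.015, 0.055 after scaling) and the tropomyosin gene Tpm4 (0.034, 0.15 after scaling). With the deposited counts after median-ratio scaling Daam1 passed (-0.74, adjusted p = 0.0083) and Tpm4 did not (-0.88, adjusted p = 0.095). With single libraries left out, limma adjusted p reached 0.057 for Daam1 and 0.099 for Tpm4. Of 20 focal adhesion genes, a list that does not hold Fermt2, 1 rose and 0 fell (median -0.26, 0.04 after scaling). It was Tns1, tensin 1, which anchors actin at focal adhesions, with 23.8, 33.02, 27.6 and 25.1 FPKM in dexamethasone 1 to 4 against 13.5, 13.5, 12.8 and 13.5 FPKM in vehicle 1 to 4 (0.97 ± 0.19 SE, limma adjusted p = 0.0075, 6.2e-04 after scaling). Tns1 passed under every alternative tried.

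The serum response factor and its MRTF partners are activated when free actin falls, and their targets include many cytoskeletal genes. Of 16 tested genes of this list 1 rose and 0 fell (median -0.16, 0.10 after scaling). Ctgf, a matricellular growth factor, was at 9.28, 14.8, 10.1 and 5.17 FPKM in dexamethasone 1 to 4, against 0.929, 5.62, 3.52 and 3.599 FPKM in vehicle 1 to 4, and dexamethasone 4 overlapped the vehicle group (1.35 ± 0.37 SE, limma adjusted p = 0.038, 0.011 after scaling). The call was lost without any of 6 single libraries (adjusted p up to 0.088). Cyr61, its close relative, had a difference of -0.73 (adjusted p = 0.093). Of 16 microtubule genes 0 rose and 1 fell, Tubb5 (adjusted p = 0.047), which missed the threshold after scaling (-0.47, 0.24). The Tubb5 call was also lost without some single libraries (limma adjusted p up to 0.13).

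A list was drawn up as genes widely induced by the glucocorticoid receptor, and whether the receptor acts on each member here was not tested. Of its 36 tested members 18 were higher, 17 did not pass and 1 was lower, against 1.37% higher and 7.85% lower of all genes tested. The list does not hold Fam107a, but it was drawn up with earlier results of these data known. It holds Cyp2b10, Lcn2, Mt1 and Mt2, which rank above Fam107a. Ppp1r3c, Gadd45b and Sult1e1, which rank directly below it, and Cdkn1a at rank 11 are members too. The share and median of the list are therefore no independent evidence. Its median log2 difference was 0.81 (1.06 after scaling). After scaling 20 rose and 0 fell. Fkbp5, a cochaperone that lowers the receptor's affinity for its ligand, was at 64.9, 62.3, 65.0 and 46.8 FPKM in dexamethasone 1 to 4, against 6.97, 7.56, 7.81 and 5.15 FPKM in vehicle 1 to 4 (2.95 ± 0.21 SE, limma adjusted p = 2.4e-06). Sgk1, a kinase that regulates sodium transport (1.72 ± 0.20 SE, adjusted p = 4.1e-04), and Zbtb16, a transcriptional repressor (1.39 ± 0.29 SE, adjusted p = 0.011), rose as well.

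Other members of that list did not pass in the deposited FPKM. Tsc22d3, an anti-inflammatory mediator (0.54, adjusted p = 0.34), Klf9, a Krüppel-like transcription factor (0.23, adjusted p = 0.54), and Per1, a repressor in the circadian clock (0.07, adjusted p = 0.90), are known in many cells as early targets. With the deposited counts after median-ratio scaling Tsc22d3 (0.97, adjusted p = 0.011) and Klf9 (0.69, adjusted p = 0.009) passed. The member that fell was Gadd45a (adjusted p = 0.038), a relative of Gadd45b, and it missed the threshold after scaling (-0.71, adjusted p = 0.11). Against these, the per-length level of Fam107a in dexamethasone livers (19.8 FPKM) was near that of Gadd45b (22.1 ± 4.21 FPKM, SD, n = 4) and Zbtb16 (20.7 ± 2.30 FPKM), and below Fkbp5 (59.7 ± 8.73 FPKM). With vehicle Fkbp5 was at 6.87 ± 1.20 FPKM and Zbtb16 at 7.82 ± 3.13 FPKM, whereas Gadd45b was at 0.424 ± 0.198 FPKM and Fam107a lower still.

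Of 16 tested genes of the receptor, its cochaperones and ligand handling, 0 rose and 4 fell (median -0.51, -0.12 after scaling). The shares over all genes tested were 1.37% higher and 7.85% lower. After scaling 0 rose and 1 fell, against 3.3% higher and 3.03% lower of all genes. Serpina6, the corticosteroid-binding globulin of plasma, was at 11.6 ± 4.72 FPKM with dexamethasone and 65.0 ± 17.9 FPKM with vehicle (SD, n = 4 each; -2.46 ± 0.31 SE, limma adjusted p = 6.0e-04, 7.8e-04 after scaling). The receptor genes Nr3c1 (adjusted p = 0.021) and Nr3c2 (0.013) and the steroid reductase gene Srd5a1 (0.042) fell in the deposited values. After scaling their differences were -0.56, -0.86 and -0.64 and missed the threshold (adjusted p = 0.097, 0.076 and 0.13). Nr3c2 passed with the deposited counts after median-ratio scaling (-1.18, adjusted p = 0.0014). The Nr3c1 and Srd5a1 calls were also lost without some single libraries (limma adjusted p up to 0.076 and 0.11).

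**Figure D4:**
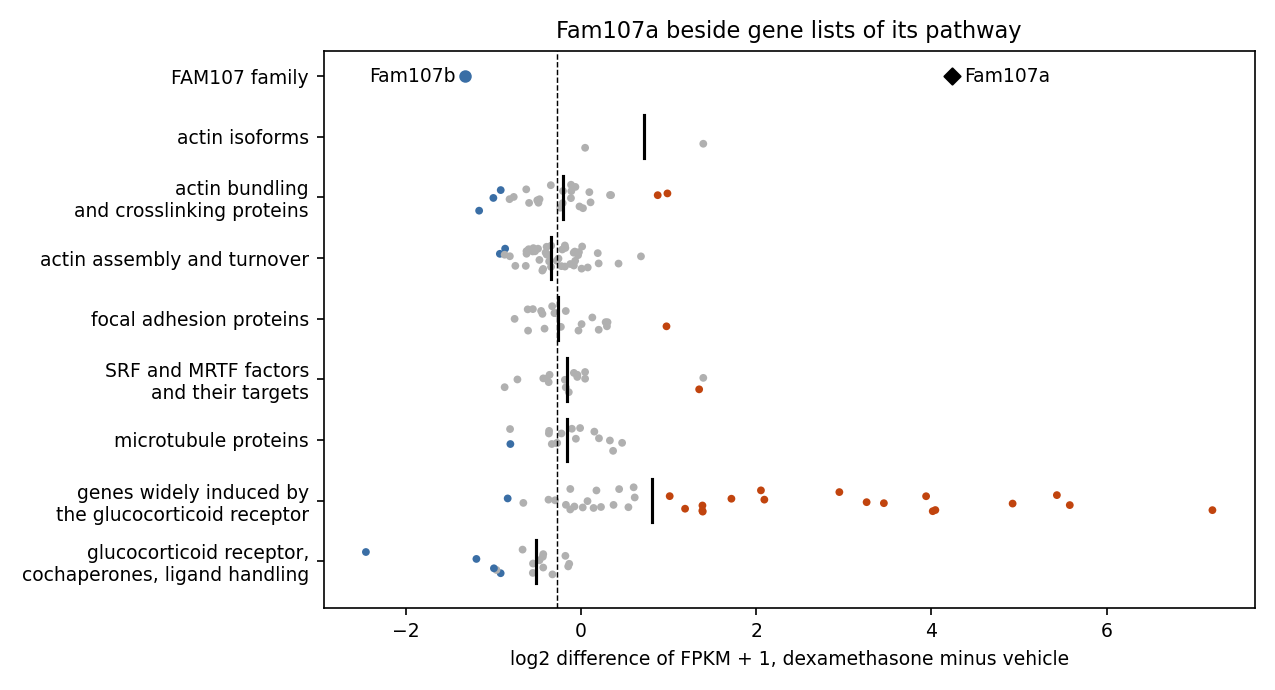
Log2 difference (FPKM + 1, dexamethasone minus vehicle) of Fam107a (diamond), Fam107b and each tested member of 8 gene lists. Red and blue points were higher and lower at a limma adjusted p under 0.05, black bars are list medians, and the dashed line is the median of all genes (-0.28). Members of the list drawn up as induced by the glucocorticoid receptor reach 7.21 (Cyp2b10). The actin bundling and assembly lists have medians of -0.21 and -0.34. The actin isoforms list has 2 tested genes, Actb and Actg1. Its median of 0.72 is not read as a change, since the Actg1 values may be failed estimates.

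In whole liver, a change in the number of cells of a type and a change in RNA per cell cannot be told apart. Hepatocyte markers were the most abundant of the cell type markers, with a summed level of 10580 to 20290 FPKM in dexamethasone livers and 18970 to 28490 FPKM in vehicle livers. Of the 7 hepatocyte markers tested, 0 rose and 0 fell. All marker sums are of deposited FPKM without scaling, from libraries that differed in their Lars2 share. Fam107a is also known from vascular cells and brain glia. Of the 11 endothelial markers tested, 1 rose and 1 fell, against 1.37% higher and 7.85% lower of all genes tested. Lyve1 rose (limma adjusted p = 0.034, 0.0091 after scaling), a call lost without any of 6 single libraries. Its groups overlapped in FPKM. With the deposited counts after median-ratio scaling Lyve1 passed (limma adjusted p = 5.0e-04). Kdr fell (limma adjusted p = 0.022, 0.15 after scaling, 0.038 with the deposited counts after median-ratio scaling). The Kdr call was lost without some single libraries (limma adjusted p up to 0.075). The endothelial markers summed to 59.9 to 98.1 FPKM with dexamethasone and 65.9 to 84.0 FPKM with vehicle. Stellate cell markers summed to 70.0 to 96.6 FPKM with dexamethasone and 71.4 to 85.6 FPKM with vehicle, with 0 of 9 past the threshold.

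Of 4 smooth muscle markers tested 1 rose, against 1.37% of all genes tested. Smooth muscle markers summed to 21.0 to 28.9 FPKM with dexamethasone and 13.6 to 20.7 FPKM with vehicle. That sum was carried by Mylk, at 17.5 to 25.2 FPKM with dexamethasone and 9.72 to 14.6 FPKM with vehicle. The Mylk call (limma adjusted p = 0.041) was lost without any of 7 single libraries. After median-ratio scaling Mylk passed in FPKM and in deposited counts (limma adjusted p = 0.002 and 5.3e-06). Acta2 was at 0.0957 to 0.212 FPKM with dexamethasone and 0.190 to 0.851 FPKM with vehicle, and Cnn1 was at 0 in 7 of 8 libraries. Myh11 was at 0.279 to 0.397 FPKM with dexamethasone and 0.242 to 0.420 FPKM with vehicle. Tagln, Des and Smtn were tested and did not pass, and reached 0.839, 2.52 and 2.24 FPKM with dexamethasone and 1.05, 1.53 and 5.72 FPKM with vehicle. The part of smooth muscle in the Fam107a level was not tested. Neuron and astrocyte markers summed to 61.8 to 101 FPKM with dexamethasone and 43.6 to 74.5 FPKM with vehicle, almost all of it Slc1a2, a glutamate transporter gene that hepatocytes also express. The astrocyte gene Gfap did not exceed 0.188 FPKM in any library. Which liver cells carried Fam107a was not tested.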

How the data were processed

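Per the labels, total liver RNA was taken with Trizol, freed of ribosomal RNA and sequenced from strand-specific libraries. The submitters' processing notes name CASAVA 1.8, TopHat2 and the human build hg19, although identifiers and loci in the table are those of mouse. The tool used for counting is not given in the sources used here. Of the 22565 identifiers 21840 (96.8%) were found in GENCODE M21.

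Per the file headers, 8 columns hold the authors' FPKM, whose library total is not given. A further 8, deposited as counts, were read as a signal: between 93.2% and 95.4% of a library's values below 500 steps were whole multiples (tolerance 0.01) of 1 step, so they are fragment counts divided by 1 factor per library. Multiples of the step are called inferred fragments here. The table lists protein-coding genes alone, and its totals are less than the full depth.

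Tests used log2(FPKM + 1), computed from the deposited FPKM, keeping genes that reached 0.5 FPKM in 4 libraries, with limma 3.58.1 in R 4.3.3 (lmFit, eBayes with a mean-variance trend, treatment as the only term), two-sided, adjusted by Benjamini-Hochberg over all 10221 genes at a threshold of 0.05. Fits were tested on simulated data. Median-ratio scaling brought every library's median gene to the same level, by ratios to the geometric mean of the libraries. Replicate numbers are shared between groups, but no label pairs the libraries.

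The gene, the lists and the naming rule were chosen with earlier results of these data known. Genes named were Fam107a and Fam107b, the neighbours of Fam107a by rank of change and by position (500 kb), genes under 0.5 FPKM in all vehicle and at 5 FPKM or more in all dexamethasone libraries, the 8 of highest correlation with Fam107a, up to 4 genes with the lowest p in each list, and fixed genes. Likeness over the dexamethasone libraries alone is not reported, since 4 points are too few. 1 further gene within that window is not reported here, and the counts of neighbours leave it out. Alternatives tried were adding 0.1 or 0.5 before the log, filtering at 1 FPKM or not at all, median-ratio scaling, quantile normalization, the deposited counts in place of FPKM, replicate number as a term, no trend, and each library left out; the deposited counts with median-ratio scaling were added after seeing the data.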

Additional observations from a re-analysis of the deposited data

Results flagged for a closer look

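Among 102 groups of 4 values examined, 9 held a value far from the other 3 by Dixon's criterion, and chance alone flags about 1 in 20 groups. For Cdkn1a vehicle 3 was at 0.147 FPKM and the other vehicle libraries at 0. Uhrf1 was at 0 FPKM in 1 vehicle library, against 0.0939 to 0.104 FPKM in the others, and Actg1 reached 3.78 FPKM in vehicle 3, against at most 0.1 FPKM in the others. Both rest on few fragments. Lower than the rest were the vehicle values of 5.29 FPKM for Lima1 (others 6.51 to 6.62) and 12.8 FPKM for Tns1 (others 13.5). Among dexamethasone libraries Pxk reached 4.11 FPKM (others 2.53 to 2.79), Fermt2 7.08 FPKM (others 5.37 to 5.52) and Fkbp5 was at 46.8 FPKM in dexamethasone 4 (others 62.3 to 65.0). Lars2 took 14.5% of the fragments of vehicle 1, against 23.5% to 25.3% in the other vehicle libraries. None of the Fam107a measures (FPKM, deposited count, CPM over all fragments or outside Lars2) was flagged in either group.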

How the results depend on the processing

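Fam107a kept its direction under all 18 alternatives, as the distance between its groups made certain. Its log2 difference of 4.23 was 6.76 and 5.08 with 0.1 and 0.5 added, 6.87 with the deposited counts, and 7.17 with those counts after median-ratio scaling; leaving out single libraries gave 4.13 to 4.32. Its rank of 5 became 2 with 0.1 added and with the deposited counts, scaled or not, and 5 to 7 with a library left out. The 140 higher genes became 337 with median-ratio scaling, 335 with quantile normalization and 539 with the deposited counts after median-ratio scaling, and 107 to 170 with a library left out. The 802 lower genes became 487 with no filter, 310 with median-ratio scaling, 335 with quantile normalization and 1473 with the deposited counts, and 367 to 866 with a library left out (459 without dexamethasone 3, and 423, 367 and 404 without vehicle 1, vehicle 2 and vehicle 3). Deposited counts after median-ratio scaling gave 539 lower genes.

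Fam107b (-1.32, adjusted p = 0.016) missed the threshold with no filter (-1.32, 0.051), with the deposited counts (-0.72, 0.089) and with those counts after median-ratio scaling (-0.26, 0.55), and ranged from -1.57 to -1.10 with a library left out. The cause was not tested. Some differences that did not pass changed sign. With median-ratio scaling, quantile normalization and scaled deposited counts Pxk was at 0.13, 0.10 and 0.19 and Kctd6 at 0.09, 0.09 and 0.13. Actb was at -0.11 with the deposited counts and at -0.03 and -0.04 without dexamethasone 1 and vehicle 4 (-0.04 to 0.11 with any library left out). Per1 was at -0.02 with the deposited counts and at -0.01 and -0.22 without dexamethasone 4 and vehicle 4 (-0.22 to 0.27). Of 791 log2 differences of 44 other named genes under the alternatives, 671 kept direction and call, 103 lost the call, 5 gained it and 12 changed sign.

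With replicate number as a block 159 genes were higher and 956 lower, and Fam107a stayed at 4.23. Correlations of same-numbered libraries' deviations from their group means were -0.015 to 0.021, and 1 of the 4 dexamethasone libraries was most alike to the vehicle library of its number, so the numbers are not read as pairs. Depth limits Fam107a with vehicle, where 7 fragments set its level.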
